A study of Homo sapiens with 6 samples.

Results

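Transcripts of 43 genes of the nuclear pore and of nuclear transport, of 58219 genes in the table, were followed here. The genes were taken as a list of names, 29 pore components and 14 transport factors, each found once in the deposited table (NUPL1 under its newer symbol NUP58). That list was chosen with earlier results of these data known. Its shares beside those of all tested genes are therefore descriptions, not independent support. The cells were IMR90, a line of normal diploid human lung fibroblasts, carrying ER-RAS, an oncogenic RAS joined to the hormone-binding domain of the oestrogen receptor, so that 4-hydroxytamoxifen (4OHT) switches it on. Both groups carried ER-RAS and received 100 nM 4OHT, for 30 h (3 libraries, called uncommitted controls in the labels) or for 72 h (3 libraries, called committed). The titles name the shorter time as 1.5 days, whereas the treatment protocol and the column names give 30 h. With neither untreated cells nor uncommitted cells of 72 h at hand, commitment and time under RAS cannot be told apart. Whether replicates A, B and C are separate cultures is not stated, and the p-values therefore cover only library-to-library spread, which may be technical.

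The nuclear pore complex is the channel through which proteins and RNA cross the nuclear envelope. It is built from nucleoporins, which form ring-shaped scaffolds, a disordered barrier rich in phenylalanine-glycine (FG) repeats, filaments on the cytoplasmic side and a basket on the nuclear side. Cargo is carried by importins and exportins, whose loading and unloading is set by the small GTPase Ran, kept in its GTP form in the nucleus and its GDP form in the cytoplasm. Several of these proteins also act at kinetochores and spindles in mitosis, when the pore is taken apart.

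Each library held 13221152 to 15703544 reads in genes. Of 17 cell type markers, the 6 of fibroblasts summed to 167015 to 173286 normalised counts at 30 h and 54567 to 64583 at 72 h. All 6 fell, where 25.0% of all tested genes did. The 11 epithelial, endothelial and immune markers stayed at or below 20.9 normalised counts when summed by cell type, and CDH1 had at most 0.872, while KRT5, KRT14, CDH5 and CD3E had no read. Annotated exons of 24 members overlap exons of another gene, 21 on the opposite strand, so that part of their reads is uncertain. Normalised counts are reads divided by the authors' size factor of the library. Values below are these counts, with mean ± SD over n = 3 libraries per group. Fold changes are 72 h over 30 h on the scale log2(normalised count + 1), with limma's standard error (SE), and a gene is said to rise or fall at a Benjamini-Hochberg adjusted p under 0.05 over all 13315 genes tested.

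Most of the nuclear pore and transport genes were lower at 72 h, by small amounts. Among 42 tested members, 27 passed (48.6% of all tested genes did): 24 fell and 3 rose, while 15 missed the threshold. The median log2 fold change was -0.22, against 0.01 over all tested genes. The fallen members were 57.1% of those tested, where 25.0% of all tested genes fell, and the risen ones were 7.14%, where 23.6% of all rose. Among the 7471 tested genes at least as abundant as the lowest tested member, 29.1% fell and 26.3% rose. The remaining member, NUP210, a large membrane nucleoporin, missed the filter on low values, with 11.7, 1.02 and 2.11 normalised counts at 30 h and 1.02, 2.62 and 0 at 72 h.

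The sizes of the changes were modest beside the rest of the transcriptome. Only NUP37 and RANGAP1 fell at least 1.5-fold, 4.76% of the tested members, where 12.9% of all tested genes did, and 0 members rose that far, where 10.2% of all did. In all, 40 of the 42 members (95.2%) lay within 1.5-fold in either direction, against 74.5% of all tested genes. The quartiles of the members' log2 fold changes were -0.31 and 0.02, and those of all tested genes -0.30 and 0.27. The groups did not overlap for 33 members: 27 were lower at 72 h in every library (64.3%, background 29.9%) and 6 were higher (14.3%, background 29.3%).

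**Figure D1:**
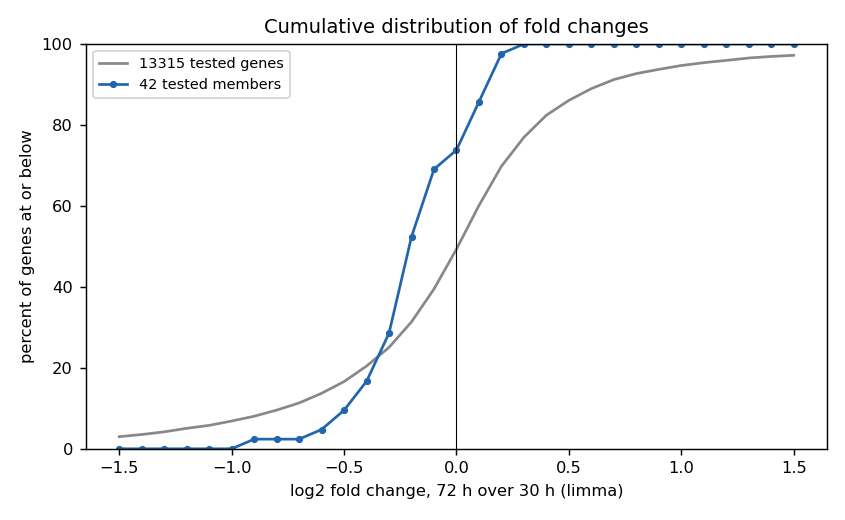
Cumulative percent of genes (vertical axis) at or below each log2 fold change of 72 h over 30 h (horizontal axis), for the 42 tested members (blue) and all 13315 tested genes (grey). The members' curve reaches 73.8% at 0, against 49.3% for all tested genes, and has short tails on both sides.

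The number of falls depended on which libraries entered. Without 30 h replicate B, 12 members fell (28.6%, where 19.8% of all genes tested in that fit did), and without 30 h replicate A, 15 fell (35.7% against 20.1%). The other 4 single-library omissions left 17 to 25 falls (40.5% to 59.5%, where 21.6% to 24.4% of all fell). The median stayed between -0.24 and -0.18 in all 6. With quantile normalisation 18 members fell (42.9%, where 23.2% of all did) and 6 rose (14.3%, where 26.3% of all did). The authors' deposited table had 18 members lower and 1 higher at its own adjusted p, where 16.9% and 15.4% of its genes were called.

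The mitochondrial share of reads also differed between the groups without overlap, at 3.56%, 4.06% and 3.75% in the 30 h libraries and 4.83%, 4.24% and 4.23% in the 72 h libraries, and its part in the members' fall was not tested. The letters did not sit evenly within the groups. At 30 h, 36 of the 42 tested members were below the 30 h mean in replicate C, against 8 in replicate A and 18 in replicate B. At 72 h the members' median log2 ratio to the 30 h mean was -0.20 in replicate A, -0.16 in replicate B and -0.31 in replicate C. Markers of dividing cells moved the same way. Of 15 such genes 14 fell (93.3%, beside 25.0% of all tested genes) and 0 rose (beside 23.6%). Their median log2 fold change was -1.32. Their summed level lay between 27122 and 33751 at 30 h and between 8629 and 16950 at 72 h. MKI67, the gene of the proliferation antigen Ki-67, read 6273, 5595 and 5140.0 in replicates A, B and C at 30 h and 2394, 2659 and 1413 at 72 h. TOP2A, a topoisomerase of dividing cells, read 5585, 5201 and 4682, then 2720.2, 3406 and 1542. For both genes replicate C was the lowest of each group, and the part of cell division in the members' fall was not tested. In bulk RNA, fewer cells of a kind and less RNA per cell cannot be told apart.

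**Figure D2:**
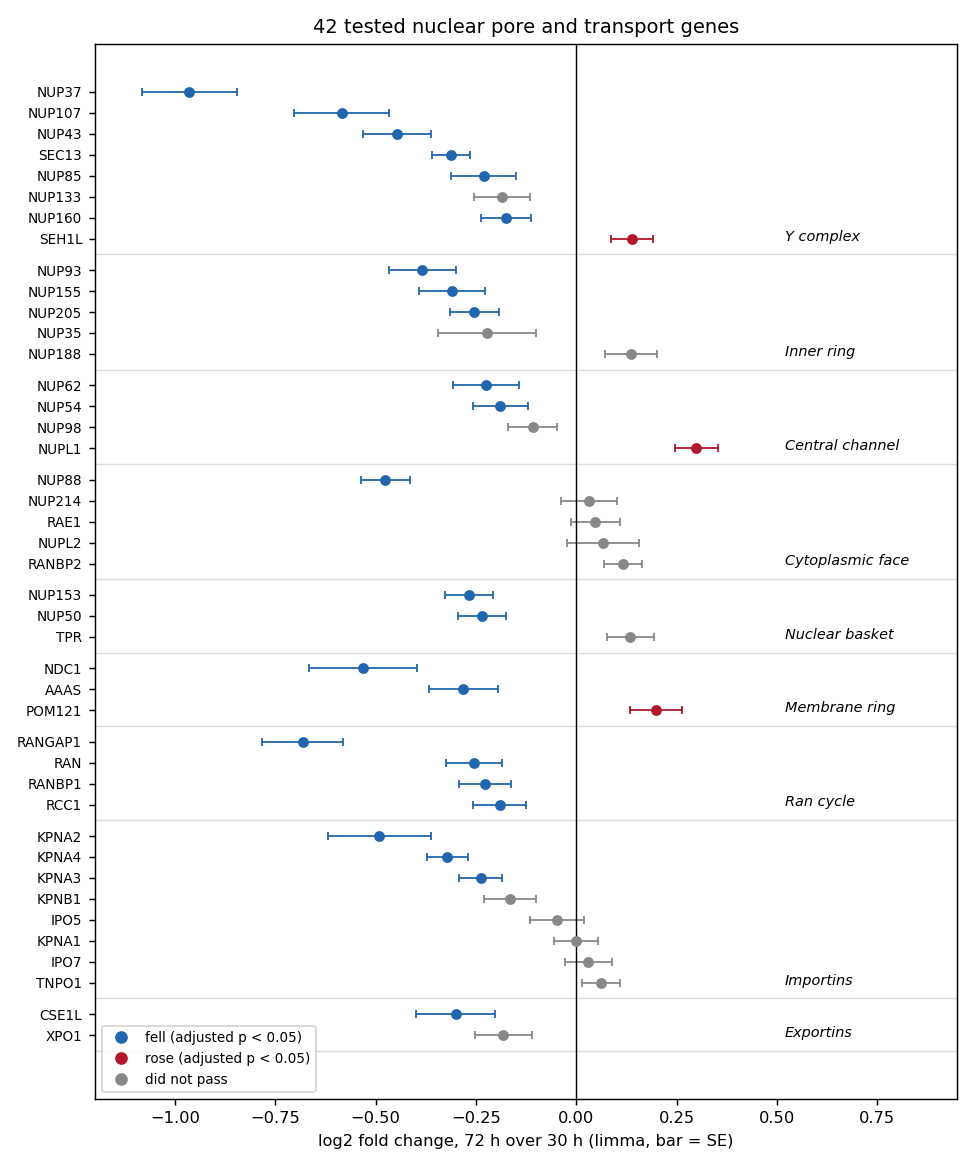
Log2 fold change of 72 h over 30 h (horizontal axis, bars are limma's SE) for the 42 tested members, grouped by their place in the pore or their role in transport. Blue points fell, red points rose and grey points did not pass. NUP37 lies farthest to the left at -0.96, and the 3 genes that rose lie between 0.14 and 0.30.

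The Y complex, the outer ring scaffold that coats both faces of the pore, contained the largest fall. Of its 8 genes 6 fell (75%, beside 25.0% of all tested genes), 1 rose and 1 did not pass. The median log2 fold change was -0.27 (4 to 5 fell and 0 rose without each library in turn). NUP37, a small propeller-shaped subunit at the NUP160 arm (ENSG00000075188.8, chromosome 12, 102073103 to 102120124, GRCh38), had 454, 444 and 369 normalised counts at 30 h and 198, 249 and 201 at 72 h. All 3 libraries of 72 h lay well below those of 30 h. The means were 422 ± 46.5 and 216 ± 28.7, and the log2 fold change was -0.96 ± 0.118 (SE, adjusted p = 0.000135). NUP107, a stem subunit that also works at kinetochores (chromosome 12, 68686734 to 68745809), read 867, 812 and 704 at 30 h and 527, 614 and 453 at 72 h. Its groups did not overlap, and the log2 fold change was -0.58 ± 0.119 (adjusted p = 0.00372). Annotated exons of antisense genes overlap both (AC079907.1 for NUP37 and AC090061.1 for NUP107).

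NUP43, another propeller subunit whose exons overlap PCMT1 on the opposite strand, went from 730.4 ± 29.6 to 537 ± 57.1 (log2 fold change -0.45, adjusted p = 0.00174). SEC13, which serves in both the pore and the COPII coat of secretory vesicles, had 2695, 2752 and 2748 at 30 h and 2189, 2211 and 2201 at 72 h. Exons of SEC13 overlap GHRLOS on the opposite strand. The spread within each group was narrow beside the gap between them (log2 fold change -0.31, adjusted p = 0.000482). NUP85 and NUP160 fell by 0.23 and 0.18 on the log2 scale with adjusted p = 0.0389 and 0.0394, and these calls were lost in 7 and 9 of 17 alternatives. NUP133 had a log2 fold change of -0.19 (adjusted p = 0.0513). SEH1L, a subunit shared with a complex of nutrient signalling, rose from 1111, 1077 and 1071 to 1185, 1187 and 1219. That is a log2 fold change of 0.14 (adjusted p = 0.0482), and the call was lost in 10 of 17 alternatives, among them each omission of a library.

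As a description of the Y complex messages per length, levels per kb of exon (the union of annotated exons, an approximate length) were summed over the 8 genes in each library. NUP37 made up 9.11% ± 0.789 of that sum at 30 h and 5.83% ± 0.598 at 72 h, and SEH1L 7.82% ± 0.136 and 10.8% ± 0.535. These 2 genes are shown because their fold changes are the lowest and the highest of the complex, so their shares restate that choice and are no separate result. SEC13 took the largest share, 37.9% ± 1.25 and 38.1% ± 1.27.

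In the inner ring, which anchors the pore to the membrane and holds the channel proteins, 3 of 5 genes fell (60%, beside 25.0% of all tested genes) and none rose. NUP93, the linker between ring and channel (chromosome 16, 56730105 to 56850286), read 936, 885 and 789 at 30 h and 667, 718 and 614 at 72 h. The groups did not overlap, and the log2 fold change was -0.38 ± 0.0831 (SE, adjusted p = 0.0039). NUP155, which touches the membrane, went from 1145, 1168 and 999 to 884, 968 and 819 (log2 fold change -0.31, adjusted p = 0.0108). The omission of 30 h replicate B raised this to 0.0526. NUP205, a large scaffold protein, fell from 1912 ± 113 to 1602 ± 72.2 (adjusted p = 0.00712). Its relative NUP188 had 2249 ± 64.8 and 2477 ± 188, a log2 fold change of 0.14 (adjusted p = 0.105), and passed as a rise without 72 h replicate C and with quantile normalisation. NUP35, which bends membranes, had a log2 fold change of -0.22 (adjusted p = 0.161).

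The central channel genes encode FG nucleoporins that form the permeability barrier. NUP62 and NUP54, partners in the channel's coiled-coil trimer, both fell, while the gene of the third partner, NUPL1 (the protein NUP58), rose. Of the 4 channel genes 2 fell (50%, beside 25.0% of all tested genes) and 1 rose (25%, beside 23.6%). NUPL1 (chromosome 13, 25301524 to 25349800) had 1998, 1919 and 1866 at 30 h and 2412, 2433 and 2273 at 72 h. Every library of 72 h exceeded every library of 30 h, and the log2 fold change was 0.30 ± 0.0540 (SE, adjusted p = 0.00139). It was the only rise among the members that was called under all 17 alternatives. NUP62 had 899.8, 842 and 864, then 778, 807 and 653, with a log2 fold change of -0.22 (adjusted p = 0.0461). NUP54 fell by 0.19 on the log2 scale with adjusted p = 0.0437. These falls were lost in 9 and 10 of 17 alternatives, and without each library in turn at most 1 of the 2 passed: NUP62 only without 72 h replicate B and NUP54 only without 30 h replicate C. NUP98, the GLFG nucleoporin found in several leukaemia fusions, had a log2 fold change of -0.11 (adjusted p = 0.168). Exons of NUP62 overlap those of IL4I1 on the same strand and of ATF5 on the other.

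On the cytoplasmic face, where export complexes are taken apart, 1 of 5 genes fell (20%, near the 25.0% of all tested genes). NUP88, which docks NUP214 and NUP98 at the pore (chromosome 17, 5360963 to 5420160), read 1109, 1061 and 1012 at 30 h and 738, 783 and 766 at 72 h. The gap between groups was larger than the spread within either, with a log2 fold change of -0.48 ± 0.0603 (SE, adjusted p = 0.000172). Exons of NUP88 overlap RPAIN and RABEP1 on the opposite strand, and the sources used here do not give the strand setting. RANBP2, the giant filament protein with SUMO ligase activity, had 2609, 2578 and 2650.1, then 2838, 2884 and 2773. These groups did not overlap either, but the log2 fold change of 0.12 had adjusted p = 0.0705. Reads of RANBP2 may be shared with its close RGPD copies. NUP214, NUPL2 and RAE1, of which NUPL2 and RAE1 work in messenger RNA export, had log2 fold changes of 0.03, 0.07 and 0.05 with adjusted p = 0.741, 0.577 and 0.548.

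Both peripheral basket genes fell, while the gene of the basket's core filament did not pass. The falls were 2 of 3 basket genes (66.7%, beside 25.0% of all tested genes). NUP153, which recruits the basket to the pore, went from 1584, 1680.3 and 1659.9 to 1389.8, 1433 and 1272. Its log2 fold change was -0.27 ± 0.0606 (SE, adjusted p = 0.00495). NUP50, a cofactor of importin cargo release, went from 1507, 1512 and 1410.0 to 1270.2, 1316 and 1179 (log2 fold change -0.23, adjusted p = 0.00986). Neither gene's groups overlapped, and both calls held in 17 of 17 alternatives. TPR, the long coiled-coil protein of the filaments, had 2354 ± 59.7 and 2587 ± 168, with a log2 fold change of 0.13 (adjusted p = 0.0864). Its groups did not overlap, and it passed as a rise without 72 h replicate C and with quantile normalisation.

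Among genes of the membrane ring and its anchor, NDC1 and AAAS fell and POM121 rose. Of the 3 tested, 66.7% fell (beside 25.0% of all tested genes) and 33.3% rose (beside 23.6%). NDC1, a transmembrane nucleoporin needed for pore assembly (chromosome 1, 53765460 to 53838860), read 1262, 1205 and 981 at 30 h and 785, 927 and 679 at 72 h. The highest library of 72 h was close to the lowest of 30 h. The log2 fold change was -0.53 ± 0.134 (SE, adjusted p = 0.0134), and without 30 h replicate B the adjusted p was 0.0507. AAAS, which encodes the protein ALADIN that NDC1 anchors, had 462, 447 and 410.2, then 357, 393 and 336. Its log2 fold change was -0.28 (adjusted p = 0.021), and the call was lost in 6 of 17 alternatives, among them the omission of each library but 30 h replicate C and 72 h replicate B. POM121, the membrane nucleoporin of early pore assembly, went from 528, 518 and 554 to 595, 615 and 627 (log2 fold change 0.20, adjusted p = 0.0266, lost in 7 of 17 alternatives, among them 4 of the 6 omissions). Its near-identical copy POM121C, with which it may share reads, had a log2 fold change of 0.16 (adjusted p = 0.0596). Exons of POM121 overlap NSUN5P2 and AC211476.2 on the opposite strand, over 1853 bases.

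**Figure D3:**
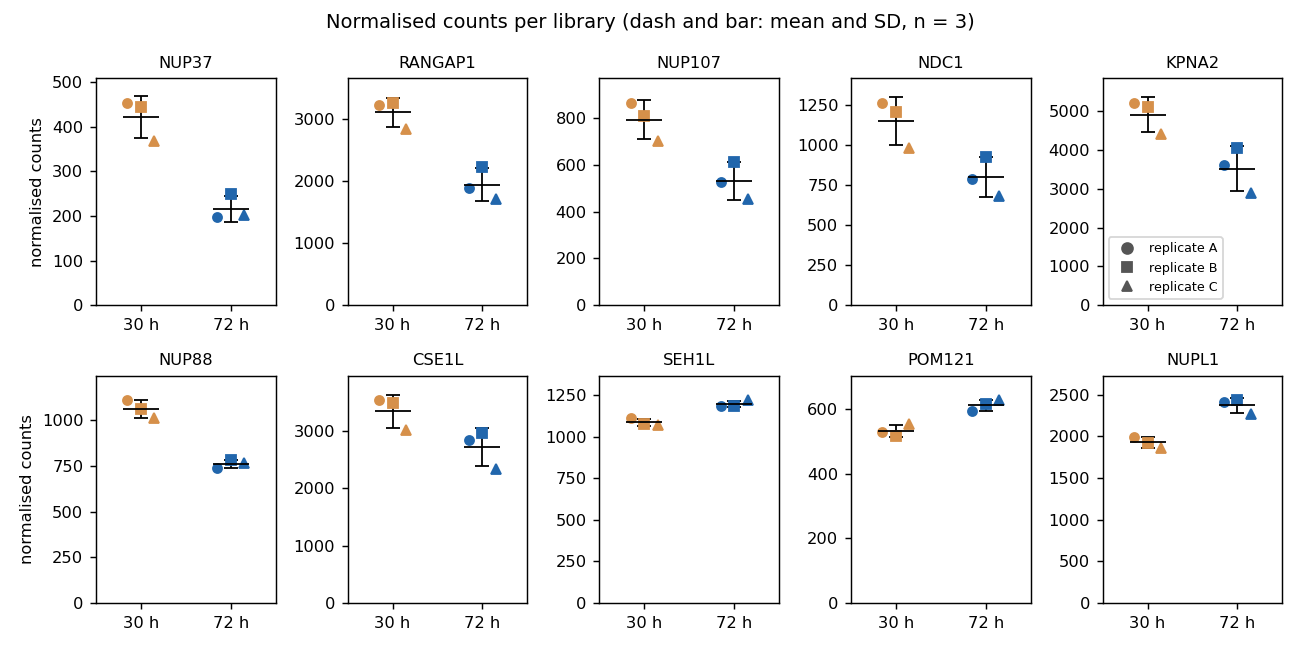
Normalised counts (vertical axes, from 0) of 10 members in the 3 libraries of 30 h (orange) and the 3 of 72 h (blue), with replicates A, B and C as circles, squares and triangles and the mean and SD as a dash and bars. NUP37 falls from 422 to 216 on average, and in RANGAP1, NUP107, NDC1, KPNA2 and CSE1L replicate C is the lowest of both groups.

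All 4 genes of the Ran cycle fell, where 25.0% of all tested genes did. RANGAP1, the GTPase activator that sits on the cytoplasmic filaments (ENSG00000100401.19, chromosome 22, 41245611 to 41286251), read 3223, 3262 and 2832 at 30 h and 1896, 2233 and 1703 at 72 h. The groups stood well apart, at means of 3105 ± 238 and 1944 ± 268. Its log2 fold change was -0.68 ± 0.101 (SE, adjusted p = 0.00076), a call kept in 17 of 17 alternatives. RAN itself, the GTPase, had 6410.4, 6652 and 5608, then 5227, 5418 and 4974, with no overlap and a log2 fold change of -0.25 (adjusted p = 0.0136). RANBP1, which helps RANGAP1 act on Ran, went from 2017 ± 92.8 to 1725 ± 121 (log2 fold change -0.23, adjusted p = 0.016). RCC1, the chromatin-bound nucleotide exchange factor, went from 900.3 ± 58.5 to 788 ± 20.4 (log2 fold change -0.19, adjusted p = 0.0344). Only RANGAP1 kept its call in every omission: 1 of the 4 genes fell without 30 h replicate A, 1 without 30 h replicate B and 2 without 72 h replicate A. Exons of RANBP1 overlap TRMT2A on the opposite strand, and those of RCC1 overlap SNHG3 on the same strand. Within the summed level per kb of the 4 genes, RANGAP1 went from 22.9% ± 0.133 to 18.0% ± 1.34, without overlap between groups. RANGAP1 had the largest fall of the 4, so this share restates its fold change and is no separate result.

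Of the 8 importin genes, 3 fell (37.5%, beside 25.0% of all tested genes) and none rose. All 3 encode importin alpha adaptors, which link cargo bearing a classical nuclear localisation signal to importin beta. KPNA2, the adaptor most tied to dividing cells (chromosome 17, 68035519 to 68046842), read 5216, 5112 and 4403 at 30 h and 3601, 4051 and 2900.2 at 72 h. The libraries of 72 h varied widely but stayed below those of 30 h. The log2 fold change was -0.49 ± 0.128 (SE, adjusted p = 0.0168), which became 0.0565 without 30 h replicate A and 0.0575 without 30 h replicate B. KPNA4 had 4164, 4053 and 3992, then 3376, 3261 and 3134, a smaller change of -0.32 with less spread (adjusted p = 0.000695). KPNA3, its closest relative, went from 2493 ± 112 to 2112 ± 53.3 (log2 fold change -0.24, adjusted p = 0.00495). KPNA1, of another adaptor subfamily, had 1515 ± 48.1 and 1514 ± 58.0 with adjusted p = 0.987, and exons of the unnamed gene AC083798.2 overlap it on the opposite strand.

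KPNB1, the gene of importin beta, had 10317, 9690.0 and 9083 at 30 h and 8957, 8855 and 8129 at 72 h. Those groups did not overlap, yet the log2 fold change of -0.16 missed the threshold (adjusted p = 0.0591). It passed with no filter, with a replicate term and without 30 h replicate C, and XPO1, described below, passed in the same 3. The other 3 import carriers did not pass. TNPO1, the receptor of signals in RNA-binding proteins, had 6675 ± 62.4 and 6964 ± 82.5, without overlap between groups. IPO5 and IPO7, which carry ribosomal proteins and histones among other cargo, had 4879 ± 403 and 4710.2 ± 156, and 5415 ± 156 and 5535 ± 318. Their adjusted p-values were 0.317, 0.586 and 0.696, and the signs of IPO5 and IPO7 turned in 1 alternative each.

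**Figure D4:**
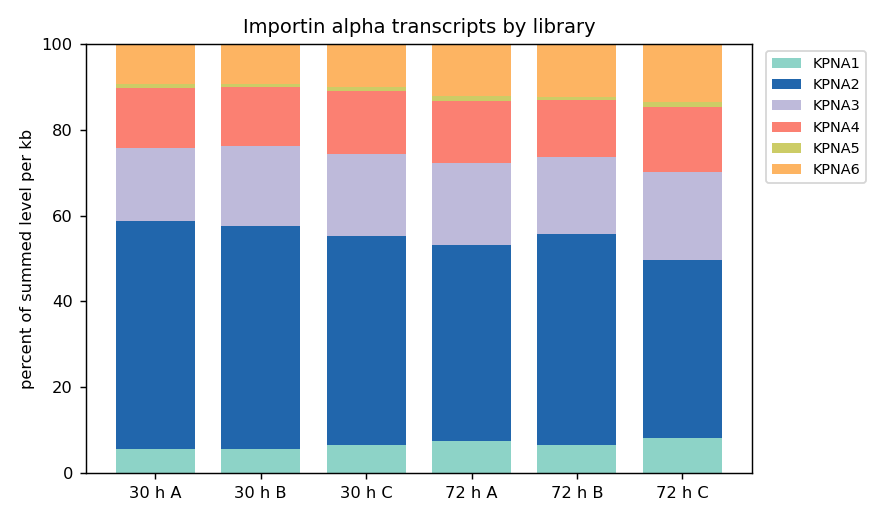
Share of each of 6 importin alpha genes (coloured segments, percent) in their summed level per kb of exon, for the 3 libraries of 30 h and the 3 of 72 h (bars). KPNA2 is the largest segment in each library, spanning 48.8% to 53.0% in the earlier group and 41.5% to 49.1% in the later one, while KPNA6 spans 9.27% to 9.95% and 12.2% to 13.6%.

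Per kb of exon, KPNA2 held 51.2% ± 2.20 of the importin alpha messages at 30 h and 45.5% ± 3.81 at 72 h, and these shares overlapped between groups. KPNA1 held 5.90% ± 0.480 and 7.35% ± 0.845, and KPNA6, which is outside the 43 members, 9.53% ± 0.371 and 12.7% ± 0.767, both without overlap. The level of KPNA6 itself did not pass (2169 ± 27.0 and 2319.9 ± 78.1 normalised counts, log2 fold change 0.10, adjusted p = 0.142), so its share moved together with a smaller sum. KPNA3 held 18.3% ± 1.10 and 19.3% ± 1.24, and KPNA4 14.2% ± 0.507 and 14.2% ± 0.899.

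The 2 exportin genes were both lower in every library of 72 h, as were 29.9% of all tested genes, and 1 passed. CSE1L, the exportin that returns importin alpha to the cytoplasm (chromosome 20, 49046246 to 49096960), read 3533, 3484 and 3009.8 at 30 h and 2848, 2971 and 2342 at 72 h. The gap between the groups was slight, since the highest library of 72 h lay just under the lowest of 30 h. Its log2 fold change was -0.30 ± 0.0990 (SE, adjusted p = 0.0342), and the call was lost in 5 of 17 alternatives: quantile normalisation and the omission of 30 h replicate A (0.11), 30 h replicate B (0.113), 72 h replicate A (0.0562) or 72 h replicate C (0.0541). XPO1, the main exportin for proteins with leucine-rich export signals, had 4726, 4715 and 4334, then 4237, 4285 and 3645. Its log2 fold change of -0.18 had adjusted p = 0.0592.

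The 9 highest members per length at 30 h were all transport factors. KPNA2, RAN, KPNB1 and CSE1L had the highest means at 30 h, 1564, 1290, 1263 and 879 normalised counts per kb. At 72 h the leading genes were KPNB1 at 1126 ± 58.8, KPNA2 at 1120.2 ± 185 and RAN at 1079 ± 46.2, which did not differ beyond their spread. SEC13 was the highest pore component in both groups, at 502 ± 5.82 and 404 ± 2.06. At the low end stood POM121, NUP214 and NUPL2 at 30 h (54.3, 59.4 and 68.7), leaving NUP210 aside. NUP37 moved most in this order, from place 29 to place 39 of 43. NUPL1 moved up from place 23 to place 16, and RANGAP1 moved down from place 6 to place 11.

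**Figure D5:**
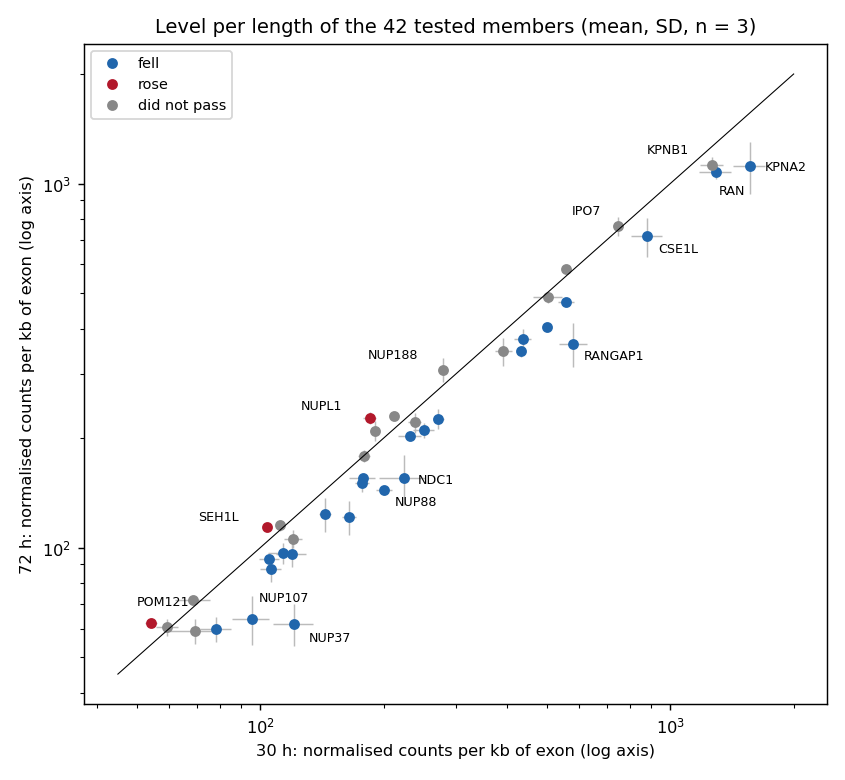
Mean normalised counts per kb of exon at 72 h (vertical log axis) against 30 h (horizontal log axis) for the 42 tested members, with SD bars (n = 3 per group) and the line of equal level. Most points lie under the line; NUP37 and RANGAP1 lie farthest below it, and NUPL1, SEH1L and POM121 above it.

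Sequence before the transcription start was described without a test, and its part in the members' changes was not tested. RefSeq promoters on GRCh38.p14 (250 bases before to 50 after the start) matched 39 of the 43 members, all but NUP43, RANBP1, KPNB1 and KPNA4. The motifs searched, on both strands, were CCAAT, the box bound by NF-Y, TTTGAA, the core of the cell cycle homology region, CCGGAAG, a core bound by ETS factors, and CACGTG, the E-box of the MYC family. CACGTG reads the same on both strands, no motif contains another, and a match describes letters, not a bound site. TTTGAA was in 10 of the 39 promoters (25.6%), against 15.2% of all 35116 promoters and 10.6% of those of tested genes. CCGGAAG was in 13 (33.3%, against 10.3% and 17.0%), CCAAT in 16 (41.0%, against 34.6% and 34.6%) and CACGTG in 5 (12.8%, against 7.26% and 9.25%). Among the 21 promoters of members that fell, 7 held TTTGAA, 8 CCGGAAG, 8 CCAAT and 3 CACGTG, and among the other 18 the counts were 3, 5, 8 and 2.

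Stretches before the start are shown for selected members, not only those with the largest changes. NUPL1, with the largest rise, is not among them. Sequences run 5′ to 3′ on the gene's strand, with matches on either strand in capitals. RANGAP1, with the second largest fall, has no match in chr22:41302370-41302519 (minus strand), which lies upstream of the gene span in the table because the RefSeq start is farther out. NUP205, a moderate fall, has TTTGAA and CCAAT close together in chr7:135557747-135557896 (plus strand). CSE1L has CCAAT on the opposite strand in chr20:49046096-49046245 (plus strand), and POM121, which rose, has CCGGAAG on the opposite strand in chr7:72879207-72879356 (plus strand). These 4 stretches hold no annotated exon. They run from 150 to 1 bases before the start for RANGAP1 and POM121, from 170 to 21 for NUP205 and from 216 to 67 for CSE1L. The promoter of CSE1L also holds TTTGAA after the start, outside its stretch.
RANGAP1: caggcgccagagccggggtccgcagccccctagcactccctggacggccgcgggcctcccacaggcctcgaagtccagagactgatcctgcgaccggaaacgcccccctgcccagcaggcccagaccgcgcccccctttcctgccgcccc
NUP205: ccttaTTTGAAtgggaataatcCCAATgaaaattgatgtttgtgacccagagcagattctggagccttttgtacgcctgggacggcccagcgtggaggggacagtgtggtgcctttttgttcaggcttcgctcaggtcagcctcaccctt
CSE1L: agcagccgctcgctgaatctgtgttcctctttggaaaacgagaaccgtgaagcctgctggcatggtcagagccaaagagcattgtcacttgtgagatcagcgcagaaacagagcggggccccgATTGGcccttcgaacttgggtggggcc
POM121: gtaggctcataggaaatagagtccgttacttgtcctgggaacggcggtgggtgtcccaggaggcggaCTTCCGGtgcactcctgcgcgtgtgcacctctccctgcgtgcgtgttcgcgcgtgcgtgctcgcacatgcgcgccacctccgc

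Shorter stretches around some of the matches are given for the other members with large falls, whose promoters run into annotated exons. NUP37 (chr12:102120163-102120192, minus strand) and KPNA2 (chr17:68035629-68035658, plus strand) both carry TTTGAA on the opposite strand, and KPNA2 has CCAAT a few bases on. NDC1 (chr1:53838310-53838339, minus strand) carries TTTGAA on its own strand, and NUP107 (chr12:68686953-68686977, plus strand) has CCGGAAG on the opposite strand next to the start. Outside the stretches shown, some of these promoters hold further matches. For NUP37 these are CCAAT and CCGGAAG, for KPNA2 CCAAT and TTTGAA, and for NUP107 CCAAT and CCGGAAG.
NUP37: cgctgaatacagTTCAAAcctcgcgggagg
KPNA2: cgtgtttTTCAAAtccaCCAATgggcacac
NDC1: ggccttcctgccTTTGAActgcggtggcgg
NUP107: tttagggacagactgCTTCCGGgtc

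Outside these 43 genes, 46 other genes of the pore, the carriers and messenger RNA export were listed, and 43 of them were tested. The list of other genes was also chosen with earlier results known, so its contrast with the members is a description. Of these 9 rose, 9 fell and 25 did not pass, 20.9% in each direction beside 23.6% and 25.0% of all tested genes, and the median log2 fold change was 0.00. None passed with an absolute log2 fold change of 0.8, the size set for naming, so those named here were chosen after their values were seen.

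Of the 5 other export carriers 2 rose (40%, beside 23.6% of all tested genes) and 0 fell. CSE1L and XPO1 among the members had log2 fold changes of -0.30 and -0.18. XPOT, the carrier of transfer RNA, had 2561, 2425 and 2361 at 30 h and 3511, 3534 and 3498 at 72 h. Every library of 72 h was higher, with a log2 fold change of 0.52 ± 0.0513 (SE, adjusted p = 3.55e-05). XPO5, the carrier of microRNA precursors, rose from 1052 ± 30.6 to 1341 ± 97.8 (log2 fold change 0.35, adjusted p = 0.00176), and XPO4, XPO6 and XPO7 did not pass. Among import carriers IPO13 rose by 0.30 on the log2 scale, and RANBP6, a relative of IPO5, fell by 0.32. Of the Ran cofactors, RANGRF fell from 262 ± 26.4 to 168 ± 9.49 (log2 fold change -0.63, adjusted p = 0.000894). Exons of SLC25A35 on the opposite strand overlap 1293 of the 1577 exonic bases of RANGRF, so most of these reads are uncertain. NUTF2, which carries Ran back into the nucleus, fell by 0.22, and RANBP3 did not pass.

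Of 18 messenger RNA export genes 5 rose and 5 fell, 27.8% in each direction, near the 23.6% and 25.0% of all tested genes. NXF1, the main export receptor, went from 836 ± 35.0 to 1032 ± 4.57, and its partner NXT2 from 103 ± 8.66 to 142 ± 13.1. THOC2 and THOC5 of the THO complex and the helicase DDX39B rose by 0.31, 0.29 and 0.27 on the log2 scale. In the opposite direction went DDX39A, the near copy of DDX39B, at -0.46, the adaptor ALYREF at -0.41, THOC3 at -0.64, THOC7 at -0.21 and PCID2 at -0.54. Some reads may be split between DDX39A and DDX39B. AHCTF1, which seeds pore assembly on chromatin, rose by 0.20, and SENP2, a SUMO protease at the pore, fell by 0.16 (adjusted p = 0.0439). Of 17 alternatives, 11 lost the call of SENP2, 5 that of AHCTF1, 5 that of THOC7, 2 that of NXT2 and 2 that of DDX39B.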

How the data were processed

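Polyadenylated RNA of 6 libraries was sequenced. The submitters' processing notes name Trimmomatic 0.35, STAR 2.5.1b, DESeq2 1.18.1 and the build GRCh38 (hg38). Read counter, annotation and strandedness are not given in the sources used. In the deposited table each cell is a signal value, namely a read count the authors divided by a size factor (0.948 to 1.15). 100% of values were whole multiples, within 0.01, of the value of 1 read, which gave back whole reads. Its log2 fold change and adjusted p-value, per the file headers, serve in sentences naming the authors' table and as 1 of the 17 alternatives counted throughout.

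The test covered 13315 genes (10 or more normalised counts in 3 or more libraries) on log2(value + 1) with limma 3.58.1 (trend, robust) in R 4.3.3, two-sided, with Benjamini-Hochberg adjustment. The steps were also run on simulated data, in which every change set was at least 1.5-fold. That run therefore does not cover changes as small as those of most members. The 17 alternatives include edgeR 4.0.16 and DESeq2 1.42.0 on recovered reads, in which edgeR called 3162 genes higher and 3331 lower. The number of other per-sample columns left out was 0. Members, lists and the naming rule were chosen with earlier results of these data known. By that rule, per-library values are given for called members with an absolute log2 fold change of at least 0.5 and for the 2 largest changes of each role. Those of SEC13, SEH1L, POM121, KPNB1 and NUP210 were added outside that rule. Coordinates are from the table, and GENCODE 29 gave exon lengths and overlaps. Protein sequences were not used here.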

Additional observations from a re-analysis of the deposited data

How the results depend on the processing

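Over 17 alternatives, 612 of 714 values of single members kept their direction and their side of the threshold, 80 no longer passed, 13 newly passed and 9 changed sign. The 12 falls called under every alternative were those of NUP37, NUP43, NUP88, NUP93, NUP107, NUP153, NUP50, NUP205, SEC13, RANGAP1, KPNA3 and KPNA4, and the only such rise was that of NUPL1. The count of members that rose, 3, was 1 with no filter (2.33%, where 12.6% of all rose) and 1 with DESeq2 (2.38% against 19.9%). It was 1 in the authors' deposited table and 6 with quantile normalisation. It was 1 to 3 without each library in turn (1 without 30 h replicate A, 30 h replicate B or 72 h replicate B), and the count that fell, 24, was then 12 to 25. The signs that changed were of genes near 0: the KPNA1 log2 fold change was 0.0035 with CPM, 0.00265 with quantile normalisation, 0.000481 with DESeq2 and -0.0221 to 0.0308 without each library, the IPO5 log2 fold change 0.0652 with quantile normalisation, and the NUP214 log2 fold change -0.0031 to 0.0799 and the IPO7 log2 fold change -0.0105 to 0.0726 without each library. The cause was not tested. The replicate letters were not taken as pairs in the main fit. Over all tested genes, deviations from the group means correlated across times at 0.00696 (A), 0.172 (B) and 0.185 (C). These values do not settle whether libraries of the same letter belong together. With a replicate block 26 members fell (61.9%, where 25.9% of all did) and 2 rose (4.76%, where 24.6% of all did). KPNB1 (adjusted p = 0.0228) and XPO1 (0.0136) were added and SEH1L was lost. At this depth no difference could be shown for NUP210, with 0 to 11.7 normalised counts.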
